A study of Triticum turgidum subsp. durum with 4 samples.

Results

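miR156 and miR172 are the paired microRNAs of the plant age pathway. miR156 is abundant in young shoots and restrains the SQUAMOSA PROMOTER BINDING PROTEIN-LIKE (SPL) transcription factors, which promote the adult phase. miR172 restrains APETALA2-like (AP2-like) transcription factors, repressors of flowering, and in Arabidopsis an SPL factor activates a MIR172 gene, so that miR156 commonly declines while miR172 accumulates as a shoot ages. Both are cut from hairpin precursors, in which the guide strand (5p for miR156, 3p for miR172) pairs with an opposite-arm strand that is usually less stable.

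The sequences described here are all those in the deposited durum wheat table named miR156, miR157 or miR172 (or MIR in place of miR), with one entry kept for each distinct mature sequence. There were 29 of these among 2111 distinct sequences: 20 named miR156, 9 named miR172 and 0 named miR157. They came from 39 of the 2174 entries. Of the 29 sequences, 21 were recorded in every library, 12 reached a normalised count of 100 in at least 1 library, and 20 had a mean of at least 10 over the libraries (15 of miR156 and 5 of miR172). The remaining 9 had lower means.

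Small RNA libraries were made from shoots of 12-day-old seedlings of 2 Australian durum genotypes, the stress-tolerant DBA Aurora and the stress-sensitive Line 6 (L6, UAD1301020-8), with 8 seedlings pooled into each library. The seedlings themselves grew unstressed, and what differed was the seed: the parents were either well watered (control group, CG) or received a water deficit from booting followed by heat after flowering (WH). The 4 libraries are called TCG (DBA Aurora, control parents), TWH (DBA Aurora, stressed parents), SCG (L6, control parents) and SWH (L6, stressed parents). Each seed group thus had 1 library, and no difference reported here has a replicate check. The miRNA entries summed to 994074 reads in TCG, 1096670 in TWH, 1293324 in SCG and 855716 in SWH, so SWH was the shallowest library. A count of 5 reads, the lowest the table usually records, was worth 4.16 to 5.99 normalised counts. All intervals are at 95% and cover counting error only, and a test between 2 libraries compares those libraries and not the seed groups. A lower level in a pooled shoot sample cannot be told apart from fewer cells that make the miRNA.

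The sequences that carry the results are shown here 5′ to 3′, as DNA letters, with the seed (bases 2 to 8) in capitals. The miR156 guide strand was by far the most abundant, and its variants differ from it at the ends or at internal bases.
bdi-miR156b-5p: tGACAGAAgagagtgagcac
aly-miR156a-5p_R+4: tGACAGAAgagagtgagcacacca
gma-miR156a_L+1R+2: tTGACAGAagagagtgagcacca
gma-miR156a_R+1: tGACAGAAgagagtgagcact
gma-miR156a_1ss20CT: tGACAGAAgagagtgagcat
bdi-miR156a_R-1_1ss9GT: tGACAGAAtagagagagcac

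The opposite-arm strands of miR156 shown here all begin with gCTCAC and differ from each other in the bases that follow.
zma-miR156l-3p: gCTCACTGctctatctgtcacc
bdi-miR156h-3p: gCTCACTGctcttcctgtcatc
zma-miR156d-3p_1ss8TC: gCTCACTCctctttctgtcagc
bdi-miR156g-3p: gCTCACCCtctctctgtcagc
ata-miR156b-3p_1ss6TC: gCTCACTTctctctctgtcagc

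For miR172 the 2 principal guide strands differed at their first base and shared the seed GAATCTT, and the opposite-arm strand lies on the 5p side.
ata-miR172b-3p: aGAATCTTgatgatgctgcat
ata-miR172c-3p: gGAATCTTgatgatgctgcat
ata-miR172b-5p: gCAGCACCaccaagattcaca

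By seed, 7 of the 20 miR156 sequences shared GACAGAA and 3 shared TGACAGA, the same stretch shifted by an added 5′ base. CTCACTG was shared by 4 opposite-arm forms, and GAATCTT by 4 of the 9 miR172 sequences.

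The members' precursors occupied 29 positions on the Svevo.v1 durum assembly, which merged into 25 separate loci, and 2 sequences had no position. The miR156 guide was found unchanged in the hairpins of 12 of these loci, on 7 chromosomes (2A, 3A, 3B, 5A, 5B, 6A and 6B), so its count is a sum that cannot be divided among loci. The opposite-arm strands were found at fewer loci. Within the precursors of the table, zma-miR156l-3p occurred at 1 locus on 2A, zma-miR156d-3p_1ss8TC at 1 locus on 6B, bdi-miR156h-3p on 6A and 6B, and bdi-miR156g-3p on 3A, 5A and 5B. These counts rest on hairpins as far as the table gives them: the 6A hairpin at chr6A:125410881-125410963 ends after the first 20 of the 22 bases of zma-miR156d-3p_1ss8TC, so that 6A cannot be told apart from 6B as a source. For miR172, the sequence of ata-miR172b-3p lay on 1A, 6A and 6B, that of ata-miR172b-5p on 6A and 6B, and that of ata-miR172c-3p at a single locus on 3A.

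The hairpins of the 2 families are shown by 1 example each, with the mature strands in capitals. The first, at chr6B:185450261-185450396 on the plus strand, carries the miR156 guide and zma-miR156d-3p_1ss8TC and overlaps no annotated gene. The second, at chr6B:679135016-679135122 on the plus strand, carries ata-miR172b-5p and ata-miR172b-3p and is also intergenic.
bdi-MIR156c: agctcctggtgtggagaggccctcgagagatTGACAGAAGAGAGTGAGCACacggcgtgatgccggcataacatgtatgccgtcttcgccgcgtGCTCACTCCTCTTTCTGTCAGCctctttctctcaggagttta
ata-MIR172b: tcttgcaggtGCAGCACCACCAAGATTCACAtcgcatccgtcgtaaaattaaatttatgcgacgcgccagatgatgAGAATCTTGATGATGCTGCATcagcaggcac

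Several miR156 hairpins lay side by side. On 3A, the precursors at chr3A:71681736-71681834 and chr3A:71681926-71682036 (both plus strand) were 91 bases apart, and on 3B the precursors at chr3B:116146584-116146757 and chr3B:116146759-116146889 (both minus strand) were separated by 1 base. Of the 29 positions, 26 overlapped no annotated gene.

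The other 3 positions overlapped annotated genes, TRITD_2Av1G243620, TRITD_5Av1G159850 and TRITD_7Av1G092250, for which the annotation used gives no name. Each held the same stretch, which differs from the miR156 guide by T14A (positions counted from the guide's 5′ end, the guide's base first). The stretch is shown with the differing base in capitals, from chr5A:440413865-440413884 on the plus strand, beside its reverse complement.
stretch: tgacagaagagagAgagcac
reverse complement: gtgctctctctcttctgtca
The reverse complement thus pairs with the miR156 guide at every base but 1. The member placed at the 5A and 7A positions, bdi-miR156a_R-1_1ss9GT, differs from the stretch by the substitution in its name and was a minor form, with normalised counts of 32.1 in TCG, 15.6 in TWH, 22.06 in SCG and 16.8 in SWH. Whether these 3 positions are miRNA genes was not tested.

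The miR156 guide strand was highest in the DBA Aurora library from control parents and lower in the other libraries. bdi-miR156b-5p had a normalised count of 11362 in TCG, 7451 in TWH, 6173 in SCG and 6328 in SWH. Only TCG stood far from the others, and the L6 libraries lay close together. With stressed parents the count in DBA Aurora fell by 0.61 on the log2 scale (interval -0.65 to -0.57), a ratio of 0.656, whereas in L6 the log2 difference was 0.04 (-0.02 to 0.09). The difference between these parental effects, L6 minus DBA Aurora, was 0.64 (0.58 to 0.71). Between genotypes the log2 difference was -0.88 (-0.92 to -0.84) with control parents and -0.24 (-0.29 to -0.19) with stressed parents, L6 being lower in both.

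The guide's sequence variants were each at most a few per cent of it. Together they made up 6.78% to 9.65% of the guide-strand counts of a library, and bdi-miR156b-5p the rest. The longest of them, aly-miR156a-5p_R+4, had normalised counts of 381 in TCG, 405 in TWH, 181 in SCG and 211 in SWH. Its counts in both L6 libraries lay below those in both DBA Aurora libraries. The log2 difference was -1.07 (-1.31 to -0.83) with control parents and -0.94 (-1.19 to -0.69) with stressed parents. The parental effect on it was small in both genotypes, with log2 differences of 0.09 (-0.11 to 0.29) and 0.22 (-0.07 to 0.50).

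gma-miR156a_R+1 was likewise lower in both L6 libraries, with 180 in TCG, 156.2 in TWH, 85.8 in SCG and 88.7 in SWH. gma-miR156a_1ss20CT stood at 141 in TCG and at 70.0, 68.3 and 51.5 in TWH, SCG and SWH, so that, as for the abundant guide, TCG stood apart. gma-miR156a_L+1R+2 varied most, with 188 in TCG, 73.8 in TWH, 27.5 in SCG and 61.1 in SWH. For this form the log2 difference with stressed parents was -1.35 (-1.73 to -0.97) in DBA Aurora and 1.15 (0.52 to 1.79) in L6, opposite directions in the 2 genotypes.

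**Figure D1:**
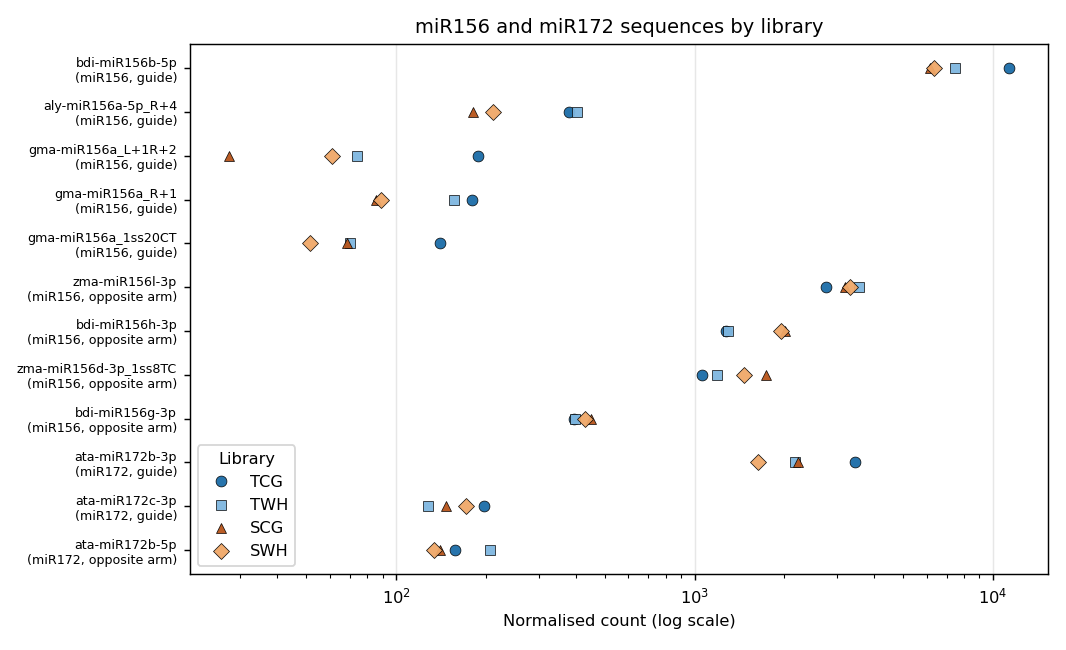
Normalised count (log axis) of the 12 sequences that reached 100 in at least 1 library, with 1 point per library. The guide-strand form bdi-miR156b-5p lies at 11362 in TCG and between 6173 and 7451 in the other libraries, whereas bdi-miR156h-3p is higher in both L6 libraries (2009 and 1948) than in both DBA Aurora libraries (1278 and 1290).

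The opposite-arm strands of miR156 did not follow the guide. The 4 abundant ones were all higher in SCG than in TCG, whereas all 5 abundant guide-strand forms were lower in SCG than in TCG. bdi-miR156h-3p, from 6A and 6B, was at 1278 in TCG, 1290 in TWH, 2009 in SCG and 1948 in SWH. It was higher in both L6 libraries than in both DBA Aurora libraries. The log2 difference was 0.65 (0.55 to 0.75) with control parents and 0.59 (0.49 to 0.70) with stressed parents. How many of all sequences divide the libraries by genotype in this way was not counted. bdi-miR156h-3p differed little with the parents' treatment, the log2 difference being 0.01 (-0.10 to 0.12) in DBA Aurora and -0.04 (-0.14 to 0.05) in L6.

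zma-miR156d-3p_1ss8TC, the strand paired with the guide in the 6B hairpin shown above, was at 1059 in TCG, 1193 in TWH, 1733 in SCG and 1464 in SWH. It was also higher in L6, by 0.71 (0.60 to 0.82) with control parents and by 0.30 (0.18 to 0.41) with stressed parents. The 2A strand zma-miR156l-3p, the most abundant of the opposite-arm forms, was at 2759 in TCG, 3552 in TWH, 3197 in SCG and 3329 in SWH. Here it was TCG that stood below the other libraries, and the log2 difference with stressed parents in DBA Aurora was 0.36 (0.29 to 0.44), opposite in sign to that of the guide. bdi-miR156g-3p varied least, from 395 in TCG and 396 in TWH to 450 in SCG and 430 in SWH, and all its intervals included 0.

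Summed over the 10 guide-strand forms, miR156 was at 12360 in TCG, 8247 in TWH, 6622 in SCG and 6831 in SWH. Summed over the other 10, it was at 5573, 6512, 7486 and 7243 in the same order. The libraries with less guide therefore had more of the opposite-arm strands, and the ratio of the second sum to the first was 0.451 (0.437 to 0.466) in TCG, 0.790 (0.765 to 0.815) in TWH, 1.13 (1.10 to 1.16) in SCG and 1.06 (1.02 to 1.10) in SWH. Because this ratio is taken within a library, it does not depend on the library's scaling. With stressed parents its log2 value was higher by 0.81 (0.74 to 0.87) in DBA Aurora and lower in L6, at -0.09 (-0.16 to -0.02). As the sums moved against each other, the total over all 20 sequences varied less than either, at 17933, 14759, 14108 and 14074, or 1.31% to 1.74% of the normalised miRNA counts of a library.

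**Figure D2:**
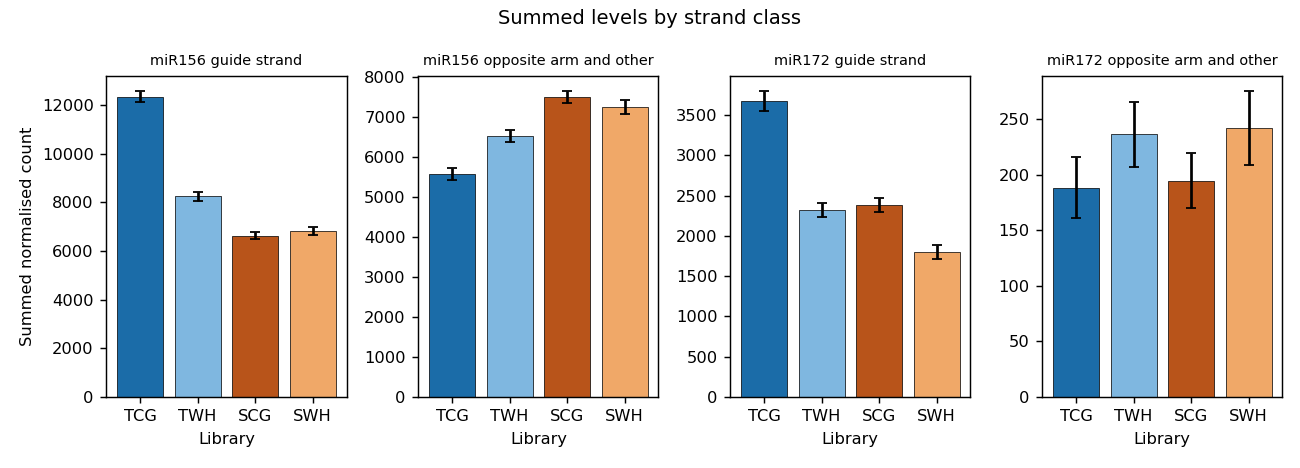
Summed normalised counts of the guide-strand forms (10 of miR156, 6 of miR172) and of the opposite-arm and other forms (10 and 3), by library, each panel on its own axis from 0; error bars are 95% counting intervals. The miR156 guide sum falls from 12360 in TCG to 6622 in SCG while the opposite-arm sum is 5573 and 7486 in the same libraries.

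miR172 was also highest in TCG. ata-miR172b-3p had a normalised count of 3444 in TCG, 2166 in TWH, 2220 in SCG and 1627 in SWH. It was lower in the library from stressed parents in both genotypes, by -0.67 (-0.75 to -0.59) on the log2 scale in DBA Aurora and -0.45 (-0.54 to -0.35) in L6. It was also lower in L6 than in DBA Aurora with either seed source, by -0.63 (-0.71 to -0.56) and -0.41 (-0.51 to -0.32). The parental effect was smaller in L6, the difference between the effects being 0.22 (0.10 to 0.34).

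ata-miR172c-3p, the form with a 5′ G from a single locus on 3A, was at 197 in TCG, 128 in TWH, 147 in SCG and 171 in SWH. It resembled ata-miR172b-3p in DBA Aurora, where its log2 difference with stressed parents was -0.62 (-0.94 to -0.30), but not in L6, where it was 0.22 (-0.10 to 0.54). In SWH it therefore made up 9.53% of the miR172 guide-strand counts, against 5.36% in TCG, 5.53% in TWH and 6.19% in SCG.

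The opposite-arm strand ata-miR172b-5p was at 157.3 in TCG, 206 in TWH, 140 in SCG and 134 in SWH, and was highest in TWH. Relative to ata-miR172b-3p, whose sequence also lies on 1A, it was 4.57% (3.88 to 5.37) in TCG, 9.53% (8.29 to 10.9) in TWH, 6.30% (5.39 to 7.36) in SCG and 8.25% (6.81 to 10.01) in SWH. As for miR156, the opposite-arm strand relative to the guide was lowest in TCG. Summed over its 9 sequences, miR172 was at 3867 in TCG, 2557 in TWH, 2574 in SCG and 2040 in SWH, or 0.199% to 0.376% of the normalised miRNA counts.

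**Figure D3:**
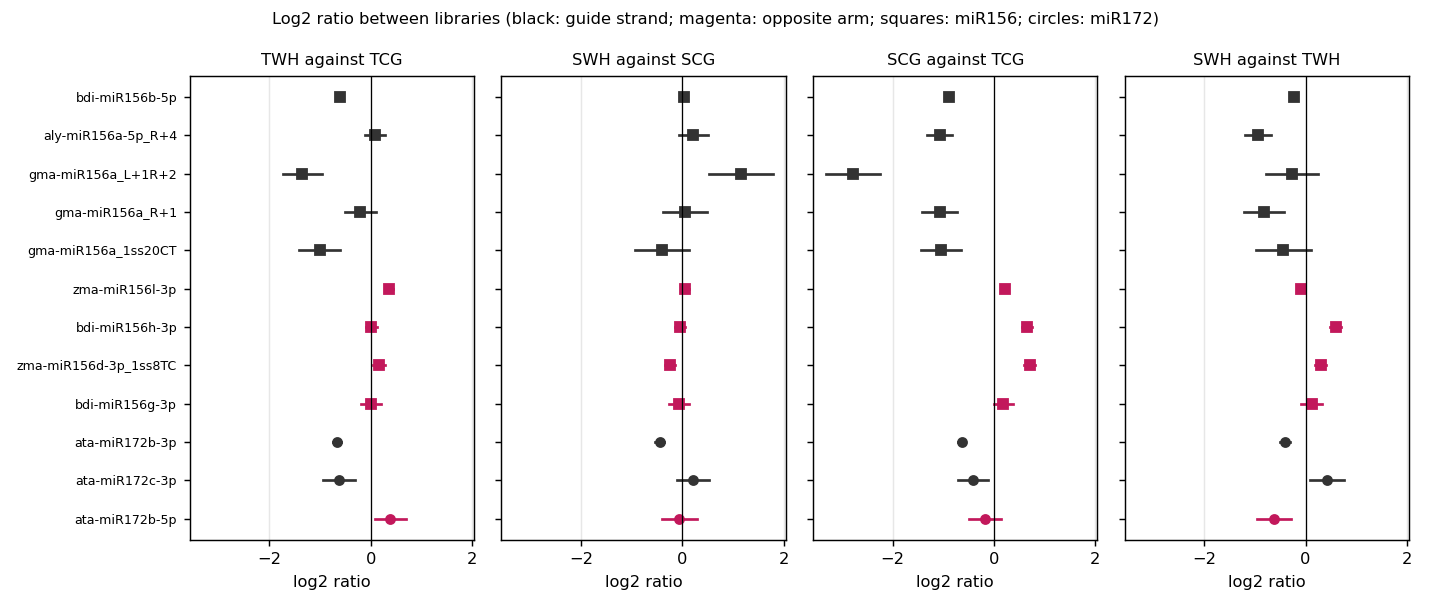
Log2 ratio of normalised counts for the 12 abundant sequences in the 4 pairs of libraries, with 95% counting intervals; squares are miR156, circles miR172, black guide strands and magenta opposite-arm strands. In SCG against TCG all 7 guide strands lie below 0, from -2.78 to -0.42, and the 4 miR156 opposite-arm strands lie above 0, from 0.19 to 0.71.

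The balance of the families was taken as the ratio of summed miR156 to summed miR172 in a library. Over all sequences it was 4.64 (4.48 to 4.80) in TCG, 5.77 (5.54 to 6.01) in TWH, 5.48 (5.27 to 5.69) in SCG and 6.90 (6.56 to 7.26) in SWH. TCG was lowest and SWH highest, and the intervals of TWH and SCG overlapped. With stressed parents the log2 balance was higher by 0.32 (0.24 to 0.39) in DBA Aurora and by 0.33 (0.24 to 0.42) in L6, with a difference between these effects of 0.02 (-0.10 to 0.14). In L6 relative to DBA Aurora it was higher by 0.24 (0.17 to 0.32) with control parents and by 0.26 (0.16 to 0.35) with stressed parents.

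This order depended on the opposite-arm strands. Over the guide-strand forms alone, the balance was 3.36 (3.24 to 3.49) in TCG, 3.55 (3.40 to 3.72) in TWH, 2.78 (2.67 to 2.90) in SCG and 3.80 (3.59 to 4.02) in SWH. SCG was now lowest, and the log2 difference of SCG from TCG was -0.27 (-0.35 to -0.19). The parental difference was 0.08 (0.00 to 0.17, the lower bound lying just below 0) in DBA Aurora and 0.45 (0.35 to 0.55) in L6, and the difference between those effects was 0.37 (0.24 to 0.50). The ratio of bdi-miR156b-5p to ata-miR172b-3p gave the same order of libraries, with 3.30 in TCG, 3.44 in TWH, 2.78 in SCG and 3.89 in SWH. On either count of the strands, the ratio was higher in SWH than in SCG. In SWH miR172 was lower than in SCG, and miR156 was nearly level between them.

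**Figure D4:**
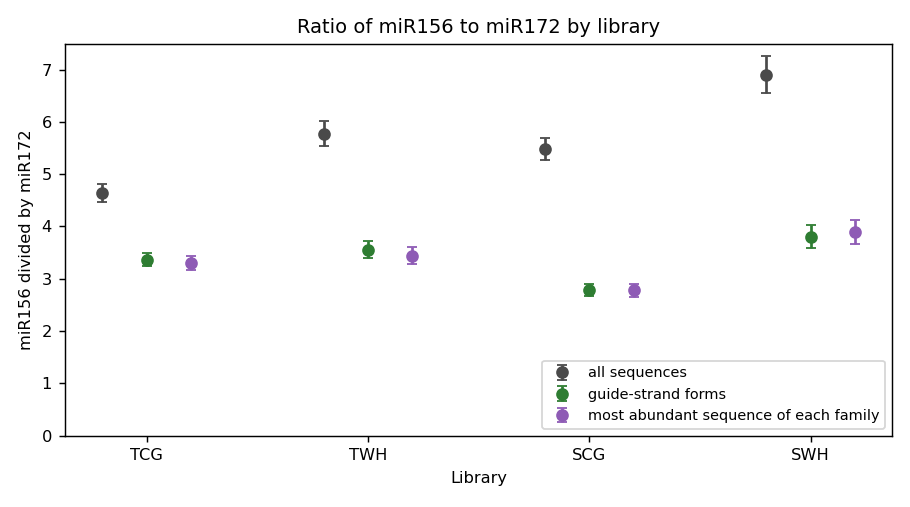
Ratio of miR156 to miR172 by library, for all 29 sequences, for the guide-strand forms (10 and 6) and for the most abundant sequence of each family; bars are 95% counting intervals. The ratio over all sequences is lowest in TCG (4.64), whereas over guide-strand forms it is lowest in SCG (2.78).

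Each pair of libraries was also tested over all sequences of the table, with the tests the study names, a chi-squared test and Fisher's exact test (2-sided), here of each sequence against the sum of the others. A sequence was called where both gave p under 0.05 and the log2 ratio was beyond 1 in either direction, a 0 in 1 library meeting the fold criterion. In TWH against TCG, 1 of the 29 members was called higher and 5 lower, against 22.0% of 1977 sequences called in all (10.8% higher and 11.2% lower). Those called lower included gma-miR156a_L+1R+2, gma-miR156a_1ss20CT and bdi-miR156a_R-1_1ss9GT. In SWH against SCG 2 were called higher and 3 lower, with 19.4% of 1967 called (7.47% and 11.9%). All 3 called lower were at 0 in SWH, the shallowest library, and between 5.83 and 7.49 in SCG, close to the recording minimum. With a normalised count of at least 10 required, 2 were called higher and 0 lower in this pair. In SCG against TCG 1 was called higher and 6 lower, with 30.2% of 2039 called (14.3% and 15.9%), and the 6 were 4 miR156 guide variants (aly-miR156a-5p_R+4, gma-miR156a_L+1R+2, gma-miR156a_R+1 and gma-miR156a_1ss20CT) and 2 minor miR172 forms. In SWH against TWH 2 were called higher and 5 lower, with 29.8% of 1985 called (12.0% and 17.7%). All 5 called lower were at 0 in SWH and between 5.68 and 15.1 in TWH. In each pair the share of members called was near or below that of all sequences.

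With p-values from both tests combined by taking the larger, adjusted by the Benjamini-Hochberg method and used without a fold criterion, small differences in abundant sequences were called as well. In TWH against TCG, 2 members were then higher and 6 lower, against 21.1% of all sequences (8.8% higher and 12.3% lower). The 2 were zma-miR156l-3p and zma-miR156d-3p_1ss8TC, and the 6 included bdi-miR156b-5p, ata-miR172b-3p and ata-miR172c-3p. In SWH against SCG 4 were higher and 2 lower, against 13.7% (6.96% and 6.76%), the 2 being ata-miR172b-3p and zma-miR156d-3p_1ss8TC. In SCG against TCG 4 were higher and 9 lower, against 35.3% (15.8% and 19.5%). The 9 were all guide-strand forms, 5 of miR156 and 4 of miR172, and the 4 were all opposite-arm strands of miR156. In SWH against TWH 5 were higher and 8 lower, against 35.0% (16.7% and 18.2%). In SWH against SCG, bdi-miR156b-5p and zma-miR156l-3p were among the 4 called higher, although their intervals on normalised counts included 0. The test compares a sequence's share of the library's miRNA counts, and the normalised totals of those libraries differ.

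The median log2 ratio of the members, with 1 added to each count, was 0.00 in TWH against TCG, -0.05 in SWH against SCG, -0.43 in SCG against TCG and -0.16 in SWH against TWH. Over all sequences the corresponding medians were -0.01, -0.08, -0.00 and -0.09. The abundant bdi-miR156b-5p, ata-miR172b-3p and opposite-arm strands were not called in any pair by the rule with a fold criterion, since none of their differences reached a log2 ratio of 1.

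In a fit across the 4 libraries with genotype and parents' treatment as terms, edgeR's quasi-likelihood test with Benjamini-Hochberg adjustment called 0 of the 20 members tested for the parents' treatment, with 0.0% of all 1258 sequences called. At unadjusted p under 0.05 there was 1 member, with 1.59% of all sequences. DESeq2 and limma called 0 members, and 0 of all sequences. For genotype 0 of the 20 were called, with 0.0795% of all sequences called, while 6 members, and 13.8% of all sequences, had unadjusted p under 0.05. DESeq2 and limma again called 0 members, with 2.78% and 0.874% of all sequences called. This fit had 1 residual degree of freedom. With 1 library left out only the tested term could be fitted. Without TWH, 5 members were then called lower in L6, namely the miR156 guide and 4 of its variants, with 8.11% of all sequences called, whereas leaving out any other library gave 0. The same fit of genotype alone on all 4 libraries, an alternative chosen after seeing the data, also called 0 members, with 1.83% of all sequences called.

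Low forms were recorded in some libraries only. vvi-miR172d_L-2R+1 and osa-miR172a_R+3, miR172 guides with added 3′ bases, were recorded in DBA Aurora only, at 6.21 and 13.5 in TCG and 6.63 and 5.68 in TWH. Against the floor of 5 reads per library, osa-miR172a_R+3 was at least 3.23-fold lower in SCG than in TCG, and vvi-miR172d_L-2R+1 at least 1.49-fold lower. mtr-miR172b_L+1 was recorded in the libraries from control parents only, at 6.21 in TCG and 5.83 in SCG, which is 6 reads in TCG. mtr-miR172b_L+2 was recorded in all libraries but SWH, at 11.4 in TCG, 14.2 in TWH and 6.66 in SCG. ata-miR156b-3p_1ss6TC, found whole in a 3B hairpin, was recorded in all but TCG, at 5.68 in TWH, 10.8 in SCG and 8.39 in SWH. It was at least 2.09-fold higher in SCG than in TCG. The 3A hairpin at chr3A:71681244-71681339 ends after the first 16 of its 22 bases, so that 3A cannot be told apart from 3B as a source. sbi-MIR156h-p3 was recorded in TWH only, at 2.37. At these depths such absences were not distinguishable from levels just under the recording minimum.

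The forms with MIR in their names were taken from a precursor arm that miRBase does not annotate as mature, and none of the 5 shared a seed with the strands shown above. A pair of overlapping sequences named nta-MIR172f-p3, placed at stretches of 31 bases on 4A, were highest in SWH. nta-MIR172f-p3_2ss14CG18TA was at 18.6 in TCG, 18.9 in TWH, 35.0 in SCG and 57.5 in SWH, and nta-MIR172f-p3_2ss15CG19TA at 12.4, 11.4, 20.0 and 50.3. The second was called higher in SWH than in SCG, by 1.33 (0.61 to 2.06) on the log2 scale, and both were called higher in SWH than in TWH, by 1.60 (0.85 to 2.36) and 2.15 (1.22 to 3.07). Both were part of the miR172 opposite-arm and other sum, which was 242 in SWH. Without them the summed miR172 was at 3836 in TCG, 2527 in TWH, 2519 in SCG and 1932 in SWH. Without any form with MIR in its name, the balance was 4.66 in TCG, 5.83 in TWH, 5.59 in SCG and 7.28 in SWH. The overlapping pair named ptc-MIR156h-p5, from 3A and 3B, were low in all libraries, ptc-MIR156h-p5_2ss14AC18AG at 23.8, 4.73, 18.3 and 10.8 and ptc-MIR156h-p5_2ss15AC19AG at 14.5, 15.1, 7.49 and 0 in TCG, TWH, SCG and SWH. The other 6 members, of both miR156 strand classes, lay between 0 and 51.5 in every library.

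A 3′ end of CCA was shared by 3 members that the rule did not choose for it: aly-miR156a-5p_R+4, gma-miR156a_L+1R+2 and osa-miR172a_R+3. They are 10.3% of the 29 members, against 62 of 2111 sequences (2.94%) in the whole table. None matched a precursor of the table to its last base. From the 5′ end, 22 of the 24 bases of aly-miR156a-5p_R+4 matched one, as did 22 of the 23 of gma-miR156a_L+1R+2 and 23 of the 24 of osa-miR172a_R+3.

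Across the 4 libraries, the families whose summed levels were nearest in pattern were found by the root mean square difference of their log2 levels, centred on each family's mean, among 91 families. For miR156 they were miR5169 (0.02), miR171 (0.05) and miR9652 (0.05). For miR172 they were miR1130 (0.09), miR5168 (0.16) and miR1847 (0.17). With 4 libraries these are descriptions of likeness only.

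Other families tied to phase change and flowering were counted by the same call. Of all sequences, 10.8% were called higher and 11.2% lower in TWH against TCG, and 7.47% and 11.9% in SWH against SCG. Between genotypes, the shares were 14.3% and 15.9% in SCG against TCG, and 12.0% and 17.7% in SWH against TWH. miR529 and miR535, which also target SPL genes, had 0 sequences each under those names. The 7A position of bdi-miR156a_R-1_1ss9GT, counted here as miR156, was listed under the miRBase precursor far-MIR529. miR5200, which targets florigen genes in Brachypodium, had 4 sequences summing to 5260 in TCG, 5140 in TWH, 3098 in SCG and 5926 in SWH, with 0 called in any pair. Its sum was lowest in SCG, whereas that of miR172 was lowest in SWH. miR319, which targets TCP transcription factors, had 11 sequences and its sum was lowest where miR156 and miR172 were highest, at 11993 in TCG, 13950 in TWH, 17195 in SCG and 21067 in SWH. Of its sequences 4 were called higher and 0 lower in SWH against SCG, and 1 was called higher and 2 lower in TWH against TCG. Between genotypes, 1 was called higher and 1 lower in SCG against TCG, and 4 higher and 0 lower in SWH against TWH. miR159, which targets GAMYB transcription factors, had 19 sequences, of which 3 were called higher and 2 lower in TWH against TCG, and 4 higher and 0 lower in SWH against SCG. In SCG against TCG 1 was called higher and 3 lower, and in SWH against TWH 3 higher and 1 lower. miR390, which triggers tasiRNA formation from TAS3, had 4 sequences, of which 1 was called higher in SWH against SCG and 1 in SWH against TWH.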

How the data were processed

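The authors sequenced small RNAs from 4 pooled shoot samples (1 library per seed group), and assigned reads with ACGT101-miR to miRBase miRNAs and the Svevo.v1 genome. The deposited table gives, for each miRNA of 18 to 25 bases, estimated counts per library (reads shared among positions, not always whole) and normalised counts scaled between libraries by the authors, a signal without unit. Normalised totals of the miRNA entries ranged from 1025750 in SWH to 1076770 in SCG. 28 lines of the table were not analysed here, and its second sheet was not used.

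Entries with the same sequence were merged. A guide-strand form shared at least 14 bases with its family's most abundant sequence, at a shift of at most 4, and all others were grouped as opposite-arm or other. Log2 ratios were taken from normalised counts, with 95% intervals from the counts of reads. Chi-squared and Fisher's exact tests were run on normalised counts, and members with 0 were set against 5 reads. The genotype and parental terms were tested on rounded estimated counts with edgeR 4.0.16 (TMM, mean normalised count of at least 10), with DESeq2 1.42.0 and limma 3.58.1 as alternatives (R 4.3.3, scipy 1.17.1). The tests were tried on simulated data. Sequences were named where they reached 100 in a library, were called and reached 10, or were recorded in 1 genotype or seed source only. The gene annotation was that of Svevo.v1, its chromosome names assigned to the table's sequence records by their order. Members and lists were chosen with earlier results of these data known.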

Additional observations from a re-analysis of the deposited data

Results flagged for a closer look

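In 2 sequences the library from stressed parents differed from its control one way in DBA Aurora and the other way in L6, with counting intervals that excluded 0 in both. How many of all sequences meet this rule was not counted. With 1 library per seed group the difference between genotypes was not tested. For gma-miR156a_L+1R+2, the log2 difference with stressed parents was -1.35 in DBA Aurora and 1.15 in L6. For zma-miR156d-3p_1ss8TC, it was 0.17 in DBA Aurora and -0.24 in L6.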

How the results depend on the processing

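Counts of members called depended on the criteria. With both p-values adjusted, 3 members were called in TWH against TCG (12.6% of all sequences) and 2 in SWH against SCG (7.98%). With no fold criterion the counts were 12 in TWH against TCG, 11 in SWH against SCG, 13 in SCG against TCG and 16 in SWH against TWH, with 34.3%, 29.1%, 43.6% and 42.9% of all sequences called. With a normalised count of at least 10 required, 2 were called in SWH against SCG (10.5% of all) and 4 in SWH against TWH (18.5%). The summed miR156 log2 difference moved under TMM scaling to -0.21 in TWH against TCG and -0.30 in SCG against TCG, and under scaling by clean reads to -0.069 in SWH against SCG and -0.26 in SCG against TCG; the main values were -0.28, -0.35, -0.00 and -0.35. The summed miR172 difference in SCG against TCG was -0.50 under scaling by clean reads and -0.59 in the main analysis. These scalings moved the median of all sequences by at most 0.08. The log2 balance over guide-strand forms was 0.081 in TWH against TCG, 0.45 in SWH against SCG and 0.10 in SWH against TWH, and turned to -0.27 in SCG against TCG. Over the most abundant sequences it was 0.060 in TWH against TCG and 0.48 in SWH against SCG, and turned to -0.25 in SCG against TCG. For genotype, edgeR's quasi-likelihood test called 6 members with no filter on low counts (6.54% of all sequences), and between 0 and 5 when 1 library was left out and genotype was the only term (5 without TWH, with 8.11% of all; 1.75% to 3.1% without another library). For the parents' treatment it called 0 under each of these. In a fit without a library, the lone sample of its genotype was assumed to vary like the others. With the tested term alone on all libraries, added after seeing the data, 0 members were called for either term. Of the alternative values computed, 46 were classed as near the main value, 20 as moved and 2 as reversed. Those classed as near were not all equal to it. Under TMM scaling, 4 members in place of 6 were called in TWH against TCG, with 22.3% of all sequences called in place of 22.0%. The summed miR156 log2 difference in SWH against SCG was 0.017 under TMM scaling and -0.0035 in the main analysis, so its sign changed close to 0. No paired analysis was possible because the labels number no replicates and each seed group had 1 library; genotype was a term in the fit for the parents' treatment. Depth limits the forms near 5 reads, for which no order between libraries could be read.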
